A study of Mus musculus with 4 samples.

Results

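The chaperonin containing TCP-1 (CCT, also called TRiC) is built from 8 different subunits, each encoded by a gene of its own. The genes *Tcp1*, *Cct2*, *Cct3*, *Cct4*, *Cct5*, *Cct6a*, *Cct7* and *Cct8* were taken by symbol. This choice used no measured value, though earlier results of these data were known. Of these 8 genes, 7 were measured among the 21957 genes of the series, and *Cct6a* was not analysed here. *Cct6a* is classed as a processed transcript in GENCODE release M21, while 21568 of the 21794 table entries with a match in that release are classed as protein coding.

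Mouse oocytes from B6D2F1 (C57BL/6 x DBA) females of 6 to 8 weeks, primed with gonadotropin and freed of cumulus cells, gave all 4 libraries. Germinal vesicle oocytes (GV) were taken at 0 h, MII oocytes after 12 h in M16 medium and only if a polar body was seen, and those of TubA-10 and TubA-20 after the same 12 h with tubastatin A (TubA), an inhibitor of the cytoplasmic deacetylase HDAC6. The titles of the samples give 10 and 20 μM TubA, the treatment field of the same samples gives 20 and 11 μM, and the MII sample is titled an embryo, so groups are named here by their description labels. Each group was 1 library from 1 pool of oocytes, so no difference below could be set against replicates and no p-value is given.

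CCT is a barrel of stacked rings in the cytosol. It takes up newly made proteins that cannot reach their shape alone, closes over them with ATP and releases them folded. Actin and tubulin depend on it, as do WD-repeat proteins such as CDC20, so the meiotic spindle and the cortex of a maturing oocyte are made of its clients. Every subunit occupies a fixed place in the ring, so a complete barrel needs all of them in equal number.

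Values are FPKM, fragments scaled to transcript length and to the mapped fragments of the library, so that levels can be compared between genes. Changes are log2 ratios of FPKM + 1, and a gene was counted as lower or higher when the ratio passed 2-fold. All 10 oocyte markers were above 1 FPKM in every library, with summed levels from 8454 to 9888 FPKM. The 10 cumulus and granulosa markers summed to between 10.2 and 16.2 FPKM with *Foxl2* listed at 0 in all 4 libraries. Of these, *Inha* was at 7.50 FPKM in GV and from 0.239 to 0.314 after culture, and *Cyp19a1* between 6.14 and 10.3, while *Ptx3* and *Tnfaip6* were at 0 in GV and at 1.19 and 1.57 FPKM in TubA-20. The part of these markers in the changes against GV was not tested. Summed levels of the 5 blood markers were at most 0.0347 FPKM. Fragment counts per gene were not used here. Steps between low FPKM values put the depth of TubA-20 at 0.901 of that of GV. Of 813 low values, 213 were near the step, which is 75.8% of the 281 in a wider band around it. The authors report more total reads for TubA-20 than for GV, and which order the mapped fragments had was not tested. In the other libraries 74 of 1114 (MII) and 85 of 1120 (TubA-10) low values were near a step, only 21.1% and 27.0% of those in the band. The 9193 genes that reached 1 FPKM everywhere had a median log2 ratio to GV of 0.14 (MII), 0.16 (TubA-10) and 0.23 (TubA-20), and changes against GV are lower by as much when this median is set to 0. FPKM are relative to each library, and in RNA selected with oligo(dT) less mRNA per oocyte, fewer oocytes that hold it and a shorter poly(A) tail cannot be told apart.

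The subunit mRNAs were far from equal in level. In GV oocytes *Cct5* was at 492 FPKM and *Cct7* at 40.6 FPKM, a ratio of 12.1, and the ratio of the highest to the lowest subunit was 8.23 (MII), 9.37 (TubA-10) and 12.2 (TubA-20) after culture. *Cct5* was the highest in all 4 libraries, and *Cct4* was the lowest in the 3 libraries of cultured oocytes. The 7 genes together amounted to 1184 FPKM (GV), 715 (MII), 829 (TubA-10) and 660 (TubA-20). As a share of all FPKM these sums were 0.190%, 0.126%, 0.140% and 0.105% in the same order. This order of the libraries was the same under all 4 scalings that were tried.

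**Figure D1:**
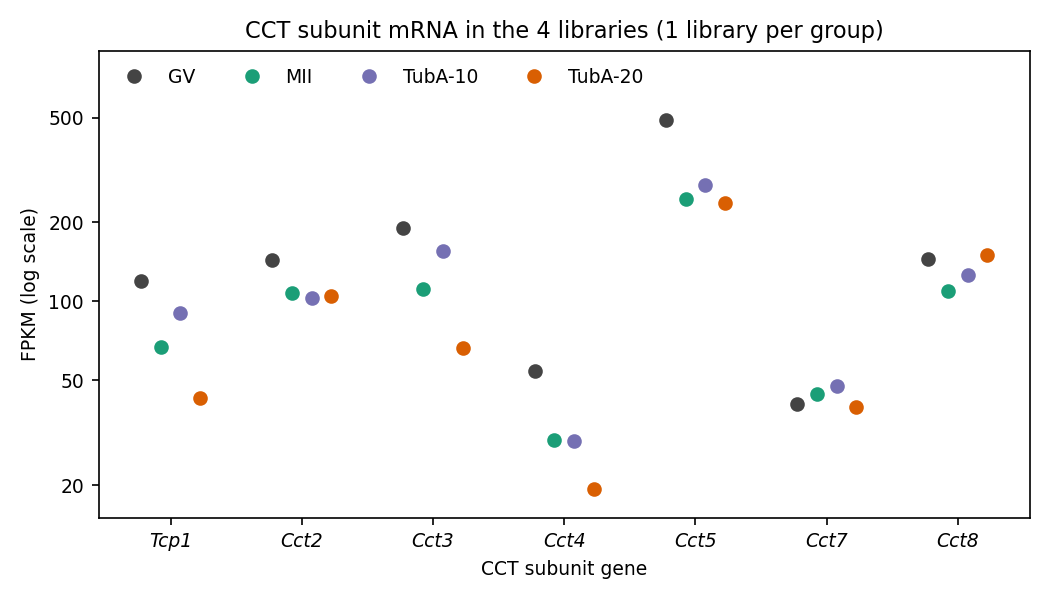
FPKM (log axis) of the 7 measured CCT subunit genes, with 1 point for each of the 4 libraries and no error bars since each group is 1 library. *Tcp1*, *Cct3* and *Cct4* are lowest in TubA-20 (43.0, 66.7 and 19.3 FPKM), while *Cct8* is highest there (150 FPKM, below GV with the median change set to 0).

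*Tcp1* encodes the alpha subunit and lies on chromosome 17 (chr17:12915701-12925067, GRCm38, plus strand), in the t-complex that gave the chaperonin its name. GV held 119 FPKM of it, MII 67.0, TubA-10 90.4 and TubA-20 43.0. TubA-10 stood between GV and MII, and TubA-20 was below all of them. Against GV the log2 changes were −0.82 (MII), −0.39 (TubA-10, or −0.13 with equal *Gapdh*) and −1.45 (TubA-20).

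*Cct3*, the gamma subunit gene (chr3:88297116-88321767, plus strand), measured 190 FPKM (GV), 111 (MII), 156 (TubA-10) and 66.7 (TubA-20). This is the order of *Tcp1*, and the pair had the most similar changes of all the members. Their 3 log2 changes against GV lay at a Euclidean distance of 0.14, and the other pairs lay at 0.42 (*Cct4* and *Cct5*) to 2.04 (*Cct4* and *Cct7*). *Cct3* changed from GV by −0.76 (MII), −0.28 (TubA-10, but −0.02 with equal *Gapdh*) and −1.50 (TubA-20), and the last of these was the lowest value of any member against GV.

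*Cct4* encodes the delta subunit (chr11:22990519-23003780, plus strand). Its FPKM were 54.4 (GV), 29.7 (MII), 29.5 (TubA-10) and 19.3 (TubA-20). Unlike those of *Tcp1* and *Cct3*, its MII and TubA-10 values were nearly equal, with log2 changes against GV of −0.85, −0.86 and, in TubA-20, −1.45.

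*Cct5* (chr15:31590800-31601804, minus strand) encodes the epsilon subunit, which can form rings on its own in the test tube. From 492 FPKM (GV) it went to 245 (MII), 277 (TubA-10) and 236 (TubA-20). The 3 cultured libraries were close to each other and all well below GV, with log2 changes of −1.004, −0.83 and −1.06. The first of these passed 2-fold narrowly and did not when libraries were scaled to *Gapdh* (−0.78), to their FPKM sums (−0.87) or to upper quartiles (−0.98). That of TubA-20 did not pass with equal upper quartiles (−0.997) or *Gapdh* (−0.98).

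*Cct2*, the beta subunit gene (chr10:117051001-117063814, minus strand), stood at 144 (GV), 108 (MII), 103 (TubA-10) and 105 FPKM (TubA-20). The cultured libraries were alike and below GV, by −0.41, −0.48 and −0.45 on the log2 scale, or by −0.18, −0.21 and −0.39 with equal *Gapdh*.

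*Cct7*, the eta subunit gene (chr6:85451514-85468475, plus strand), gave 40.6 (GV), 44.5 (MII), 47.6 (TubA-10) and 39.8 FPKM (TubA-20), the narrowest range of all members. Its change against GV was 0.13 in MII, and over the alternatives it ran from −0.01 (median change set to 0) to 0.36 (equal *Gapdh*). In TubA-10 it was 0.23, and ran from 0.07 to 0.49 under the same settings. In TubA-20 it was −0.03, which ran from −0.25 (median change set to 0) to 0.04 (equal *Gapdh*), so no direction holds for it there.

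*Cct8* encodes the theta subunit (chr16:87483326-87495873, minus strand). The 4 levels were 144 FPKM in GV, 109 (MII), 126 (TubA-10) and 150 (TubA-20). It was the one member whose highest level was in TubA-20, except with the median change set to 0, which puts GV above. MII changed from GV by −0.40 (−0.17 with equal *Gapdh*), TubA-10 by −0.20 (0.07 with equal *Gapdh*) and TubA-20 by 0.06 (−0.17 with the median change set to 0).

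Maturation without the drug was compared as MII against GV. Here 6 of the 7 subunit genes were lower in MII, with *Cct7* higher except with the median change set to 0, and the median log2 change of the members was −0.76 (−0.91 with the median change of all genes set to 0). *Cct5* was the 1 member that passed 2-fold, and no member was higher by 2-fold. Of all 21957 genes, 8.34% were lower and 3.05% higher by more than 2-fold, and of the 6156 genes that reached 10 FPKM in MII or GV, 22.2% were lower and 9.39% higher. The median of those 6156 genes was 0.12, and 27.2% of them had a lower change than the median member.

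For TubA-10 against GV the same 6 genes were lower, except *Cct8* with equal *Gapdh*, with a median of −0.39. This median was −0.55 with the median change of all genes set to 0 and −0.13 with equal *Gapdh*. None of the 7 passed 2-fold in either direction, against 5.6% of all genes lower and 0.742% higher, or 15.5% and 1.84% of the genes that reached 10 FPKM. Setting the median change to 0 took *Cct4* past it, at −1.01.

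For TubA-20 against GV, 4 of 7 members were lower by more than 2-fold: *Tcp1*, *Cct3*, *Cct4* and *Cct5*, the last not with equal *Gapdh* or upper quartiles, which leave 3. The share of all genes lower by as much was 11.7%, and 27.7% of the 6283 genes that reached 10 FPKM. None was higher by 2-fold, where 7.61% of all genes and 22.7% of those at 10 FPKM were. The median log2 change of the members was −1.06 (−1.28 with the median change set to 0), and the median of the 6283 genes was 0.27. Of the 10 oocyte markers, 6 were lower and 4 higher in this comparison with a list median of −0.86. Past 2-fold, 5 were lower (*Zp1*, *Zp2*, *Zp3*, *Figla* and *Padi6*) and *Gdf9* was higher (1.11), and *Bmp15* (0.83), *Mos* (0.71) and *Nlrp5* (0.28) were the others above GV. In TubA-10 against GV none of the 10 passed 2-fold and the list median was −0.06. Their part in the subunit values was not tested. Lower changes than those of *Tcp1* and *Cct4* were seen in 21.6% of the 6283 genes at 10 FPKM, while *Cct7* and *Cct8* lay nearer the middle (44.0% and 45.5%). The comparisons against GV share the GV library, so the likeness of their values is in part built in.

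**Figure D2:**
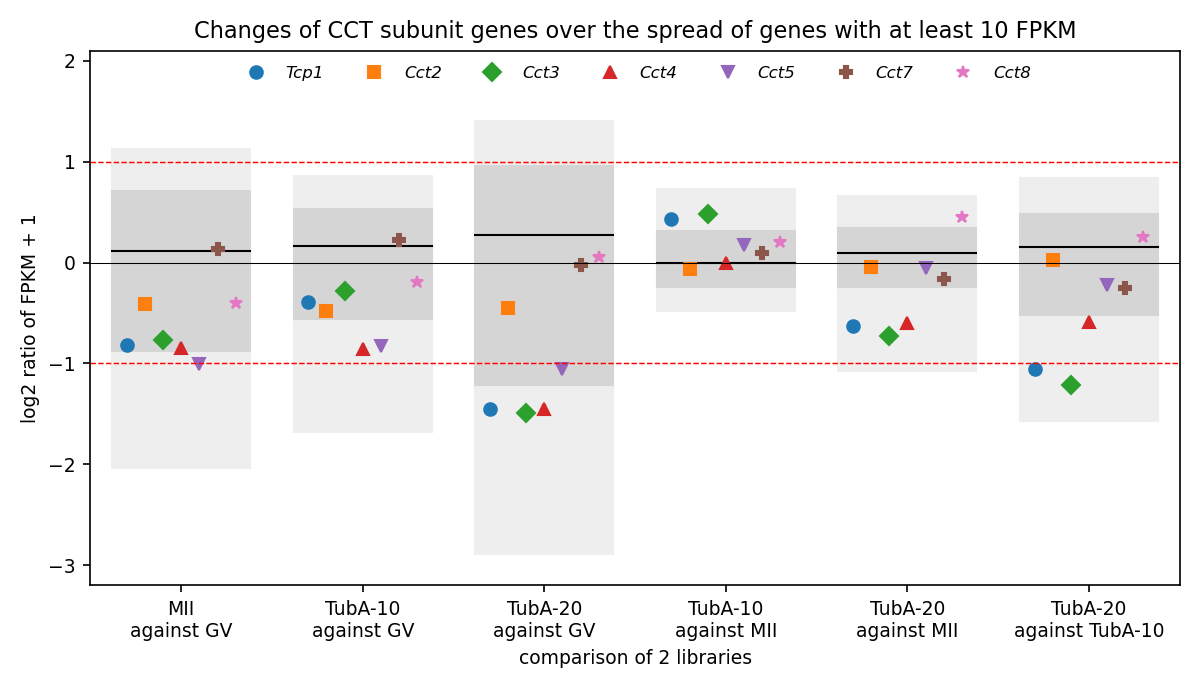
Log2 ratio of FPKM + 1 for the 7 CCT subunit genes in 6 comparisons of 2 libraries. Dark boxes span the quartiles and pale boxes the 5% to 95% range of genes that reached 10 FPKM in either library, black lines their median, and dashed red lines 2-fold. The members spread over 1.55 log2 units in TubA-20 against GV and over 0.55 in TubA-10 against MII.

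Against MII, the library of the same culture time, no member passed 2-fold in either TubA group. MII oocytes were kept only with a polar body. The paper reports that oocytes given TubA did not expel one, with arrest before MII under its higher dose. Meiotic stage and this selection may therefore differ along with the drug. Their part in the values against MII, here and below, was not tested. In TubA-20, 6 of 7 were lower than in MII and the median log2 change was −0.16, or −0.32 when scaled to *Gapdh* and −0.30 when scaled to the FPKM sums. The members were unlike each other. *Cct3* (−0.73), *Tcp1* (−0.63) and *Cct4* (−0.60) were lower by more than 1.5-fold (*Cct4* not with equal upper quartiles, at −0.57), as were 1606 of all 21957 genes, and 10.2%, 12.5% and 13.3% of the 5620 genes at 10 FPKM had lower changes than these. *Cct5* and *Cct2* were at −0.05, which became −0.21 and −0.20 with equal *Gapdh*, and *Cct7* was at −0.16 (−0.32). *Cct8* was higher by 0.45, above 85.1% of those genes, or by 0.30 with equal *Gapdh*. Of all genes, 2.44% were lower and 0.328% higher than in MII by more than 2-fold, and of the genes at 10 FPKM 6.03% and 0.463%. Of the 10 oocyte markers, 4 were lower than in MII by more than 2-fold (list median −0.46) and 4 than in TubA-10 (−0.30), and their part in the subunit values of both comparisons was not tested.

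In TubA-10, 5 of 7 members were higher than in MII, and *Cct3*, *Tcp1*, *Cct5* and *Cct7* were above MII there and below it in TubA-20. *Cct3* was higher than in MII by 0.48 and *Tcp1* by 0.43, above 86.0% and 82.9% of the 5689 genes at 10 FPKM. The other members lay between −0.07 (*Cct2*) and 0.20 (*Cct8*), and *Cct4* turned from −0.01 to 0.03 with equal *Gapdh*. For scale, 0.128% of all genes were lower and 0.515% higher by more than 2-fold in this comparison, and of the genes at 10 FPKM 0.193% and 1.34%. The median of the members was 0.18.

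Between both TubA groups the difference was largest for *Cct3* (−1.21) and *Tcp1* (−1.05), the 2 of 7 members lower by more than 2-fold in TubA-20 than in TubA-10, where 5.52% of all genes were lower and 0.66% higher (14.3% and 1.62% of genes at 10 FPKM). *Tcp1* did not pass with equal upper quartiles (−0.98). *Cct4* changed by −0.59, *Cct7* by −0.25, *Cct5* by −0.23 and *Cct8* by 0.25. When scaled to *Gapdh* the last 3 of these became −0.45, −0.42 and 0.06. *Cct2* changed by 0.02, which turned negative in 3 of the 4 scalings (−0.17 to −0.04).

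The unequal changes altered the make-up of the subunit mRNA. *Cct5* accounted for 41.5% of the summed FPKM of the 7 genes in GV and for 34.2% (MII), 33.4% (TubA-10) and 35.8% (TubA-20) after culture. *Cct8* accounted for 12.2% (GV), 15.3% (MII), 15.2% (TubA-10) and 22.8% (TubA-20). *Cct3* and *Tcp1* moved the other way in TubA-20, where they held 10.1% and 6.52%, compared with 18.8% and 10.9% in TubA-10. From the highest to the lowest level the subunits stood in the order *Cct5*, *Cct3*, *Cct8*, *Cct2*, *Tcp1*, *Cct7* and *Cct4* in MII and TubA-10. GV differed from it only in the last pair, and in TubA-20 *Cct3* dropped behind *Cct8* and *Cct2*. *Cct2* and *Cct8* were nearly level in GV and in MII, and with single libraries no neighbours in these orders can be set apart by their spread.

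**Figure D3:**
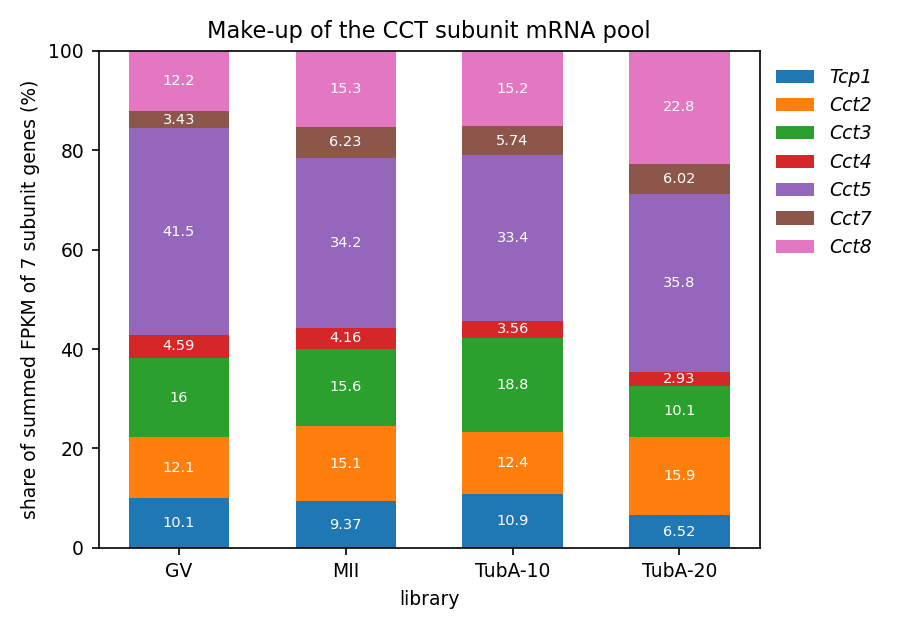
Share (%) of each of the 7 CCT subunit genes in their summed FPKM, 1 bar for each library. *Cct8* takes 22.8% of the bar in TubA-20 and 12.2% in GV, while *Cct3* takes 10.1% and 16.0%.

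The start regions of *Cct3* and *Cct8* are shown because these members stood farthest apart in their change from GV to TubA-20. They are the 250 bases before the RefSeq start on GRCm38.p6, 5′ to 3′ along the gene, chr3:88296885-88297134 on the plus strand for *Cct3* and chr16:87495870-87496119 on the minus strand for *Cct8*. Capitals mark CCAAT boxes, GC boxes (letters GGGCGG) and the ETS core (letters CCGGAAG), each read on both strands.
Cct3: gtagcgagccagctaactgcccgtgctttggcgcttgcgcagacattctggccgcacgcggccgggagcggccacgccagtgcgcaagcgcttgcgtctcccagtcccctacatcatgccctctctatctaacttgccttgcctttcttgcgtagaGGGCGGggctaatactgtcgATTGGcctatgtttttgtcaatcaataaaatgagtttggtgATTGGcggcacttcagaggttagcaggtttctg
Cct8: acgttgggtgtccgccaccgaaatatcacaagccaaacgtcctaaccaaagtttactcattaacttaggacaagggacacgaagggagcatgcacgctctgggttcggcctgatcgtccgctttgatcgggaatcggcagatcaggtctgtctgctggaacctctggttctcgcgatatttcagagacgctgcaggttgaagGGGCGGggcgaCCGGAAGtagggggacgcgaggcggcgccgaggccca
Such windows were matched by symbol for 6 of the 7 measured genes, not for *Cct4*, and where RefSeq lists several starts the first was used. A GC box (GGGCGG or its complement) was found in 6 of 6, compared with 32.9% of all 27025 windows and 60.5% of those of genes that reached 10 FPKM. A CCAAT box was found in *Tcp1*, *Cct3* and *Cct7* (34.5% of all windows and 38.5% at 10 FPKM). The ETS core CCGGAAG was found in *Cct2* and *Cct8* (7.05% and 16.6%), and a heat shock element (GAANNTTC or TTCNNGAA) in *Cct5* (12.9% and 10.4%). The letters TATAAA were found in none of the 6, in 13.0% of all windows and in 5.96% at 10 FPKM. The choice of start matters, since the second window of *Cct5* had neither the GC box nor the heat shock element, and the second of *Cct2* had a heat shock element but no ETS core. These letters describe the windows only.

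None of the 7 measured genes had a cytoplasmic polyadenylation element, searched as TTTTAT and, in its longer form, as TTTTAAT on the mRNA strand, in the last 100 bases of its principal GENCODE transcript. These untranslated ends were 128 (*Cct5*) to 662 (*Cct8*) bases long. Those of *Cct4* and *Cct7* had no polyadenylation signal (AATAAA or ATTAAA) close to the annotated end, and whether oocytes use these ends was not tested. Of 5911 genes that reached 10 FPKM and have an end of at least 100 bases, whose ends had a median length of 874 bases, 21.8% had the element. Such elements direct the lengthening of poly(A) tails during oocyte maturation. The median log2 change from GV to TubA-20 was 0.79 for the genes with the element and 0.13 for those without, and from GV to MII it was 0.55 and 0.07. From GV to TubA-10 it was 0.39 and 0.15, and in TubA-10 against MII it was −0.13 and 0.06. The part of tail length in the levels of the subunit genes was not tested.

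Of the 7 measured genes, 4 start within 1000 bases of a coding gene on the other strand, an arrangement that 10.9% of 21555 coding genes of the table have. *Tsacc*, which starts 117 bases from *Cct3*, had 115 FPKM (GV), 17.0 (MII), 22.5 (TubA-10) and 11.2 (TubA-20). *Fam173b*, 48 bases from *Cct5*, went from 20.6 to 6.00, 10.3 and 3.50 FPKM. *Pradc1*, whose first 457 bases overlap *Cct7*, was at 121, 60.5, 109 and 26.1 FPKM. *Mrpl18*, a mitochondrial ribosomal protein gene that overlaps the start of *Tcp1* by 645 bases, was at 300.1, 380, 441 and 484 FPKM. Thus *Mrpl18* was highest where *Tcp1* was lowest, and *Pradc1* changed by −2.17 from GV to TubA-20 beside a *Cct7* value of −0.03. *Cct8* also overlaps *Usp16*, and *Tcp1* overlaps *Acat3*, on the other strand. The authors counted with a strand-specific option, and whether the reads of such overlaps were separated was not tested. RefSeq lists 2 pseudogenes of *Tcp1*, 3 of *Cct3*, 1 of *Cct4*, 5 of *Cct7* and 2 of *Cct8*, whose reads may be shared with these genes, so their values are uncertain to that extent, and none of *Cct2* or *Cct5* by name.

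**Figure D4:**
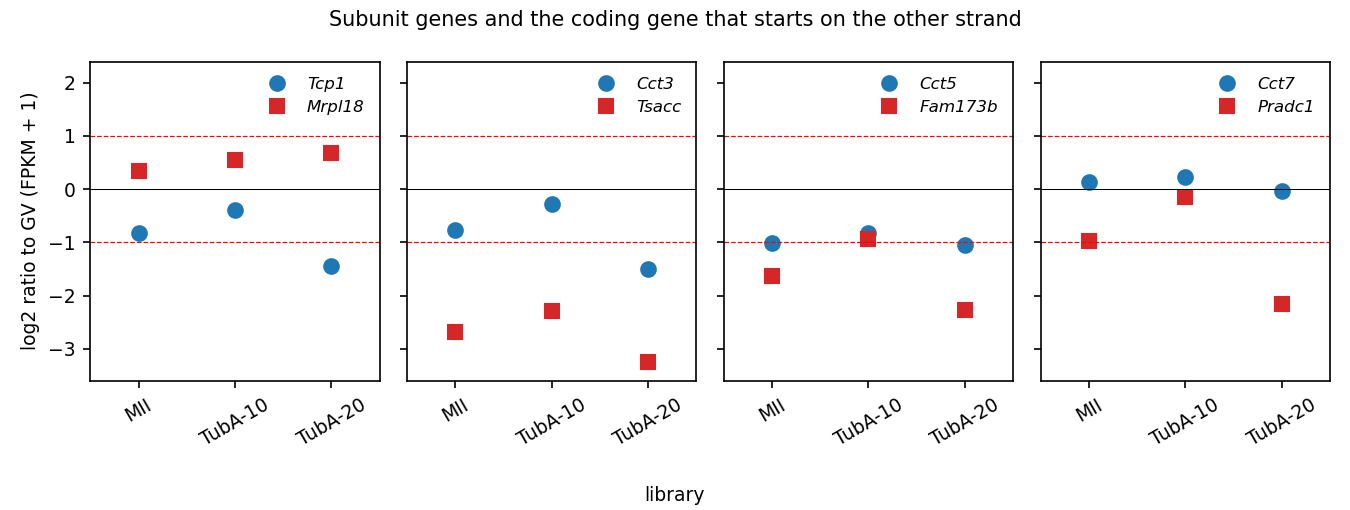
Log2 ratio to GV (FPKM + 1) of 4 CCT subunit genes (blue circles) and of the coding gene that starts on the other strand beside each (red squares) in MII, TubA-10 and TubA-20. Dashed lines mark 2-fold, and *Mrpl18* is above 0 in all 3 libraries while *Tcp1* is below.

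Other proteins hand substrates to the barrel or bind it, and their genes are set beside the subunits here. Prefoldin is the 6-part clamp that brings unfolded actin and tubulin to CCT. In MII against GV, *Pfdn6* (−2.42) and *Pfdn1* (−2.09) of the 6 genes were lower by more than 2-fold and none was higher. Of genes at 10 FPKM, 22.2% were lower and 9.39% higher there. In TubA-20 against MII *Pfdn6* changed by −1.99 and *Pfdn1* by 0.24. In TubA-20 against GV, *Pfdn6* (485 to 21.7 FPKM, −4.42) and *Pfdn1* (282 to 77.2, −1.86) were lower by more than 2-fold. *Pfdn4* (1109 to 1647, 0.57) and *Pfdn2* (81.6 to 130.1, 0.67) stayed within 2-fold, with a median of −0.46 over all 6. For these lists too, 27.7% of genes at 10 FPKM were lower and 22.7% higher in this comparison. The phosducin-like proteins bind CCT and affect the folding of its clients. Of the 4 genes none passed 2-fold in this comparison, with a median of 0.15. *Pdcl2*, at most 0.127 FPKM in any library, could not pass with the pseudocount. *Txndc9* was at 657 FPKM in GV and between 347 and 361 in the cultured libraries. Of 5 paralogues of the subunits, the testis form *Cct6b* was at most 0.452 FPKM in any library and *Cct8l1* was listed at 0 in all. *Mkks*, a chaperonin-like gene of the Bardet-Biedl group, went from 92.5 FPKM (GV) to 23.3 (MII), 28.2 (TubA-10) and 13.3 (TubA-20), and passed 2-fold from GV to TubA-20. With *Mkks*, 2 of the 5 paralogues were above 1 FPKM in any library, and the changes of the other 3 are held near 0 by the pseudocount.

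Of 23 client genes, 21 were above 1 FPKM in at least 1 library, and not all of them reached 10 FPKM. From GV to TubA-20, 7 of the 23 passed 2-fold downward and 2 upward, with a median of −0.32. Of all genes, 11.7% and 7.61% did, and of genes at 10 FPKM 27.7% and 22.7%. Of the 7 lower genes, 6 were tubulins (*Tuba1b*, *Tuba4a*, *Tubb2b*, *Tubb4b*, *Tubb5* and *Tubb6*, from −3.66 to −1.51), and no tubulin was higher by 2-fold. The other tubulins of the list stayed within 2-fold. They were *Tubg1* (0.80), *Tubb3* (0.60), *Tuba1c* (0.34), *Tubb4a* (0.18, at most 0.134 FPKM), *Tubb2a* (−0.09) and *Tuba1a* (−0.49). *Tubb4b* went from 662 to 94.6 FPKM (−2.80), while *Tubb3*, at 166 and 253 (0.60), did not pass. The actin gene *Actb* went from 39.1 to 129 FPKM (1.70), and *Actg1*, at 24.2 and 14.8 (−0.67), did not pass. Against MII, 5 of the 23 were lower by more than 2-fold and none was higher. Of all genes 2.44% and 0.328% were, and of genes at 10 FPKM 6.03% and 0.463%. Maturation without the drug, from GV to MII, already took 4 of the 23 past 2-fold downward and 2 upward. These 4 were *Tuba4a* (−2.58), *Tubb4b* (−1.95), *Tubb2b* (−1.31) and *Tubb5* (−1.08). *Tubb6* (−0.88) and *Tuba1b* (−0.75) stayed within 2-fold there, and *Actb* (1.03) passed upward. The shares of genes at 10 FPKM were 22.2% and 9.39%.

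The 20S proteasome core, another ring complex whose subunits are needed in equal number, spread more widely. Of its 14 genes, 7 were lower and none higher by more than 2-fold between GV and TubA-20, from −4.21 (*Psmb7*) to 0.38 (*Psma2*) with a median of −1.17, beside 27.7% and 22.7% of genes at 10 FPKM. The range of the 7 chaperonin genes, −1.50 to 0.06, lies within it, and whether the lists differ was not tested. In TubA-20 against MII the medians were −0.32 for the proteasome core and −0.16 for the chaperonin genes. From GV to MII, 7 of the 14 core genes were lower and none higher by more than 2-fold, with a median of −0.85. Of genes at 10 FPKM, 22.2% and 9.39% were.

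**Figure D5:**
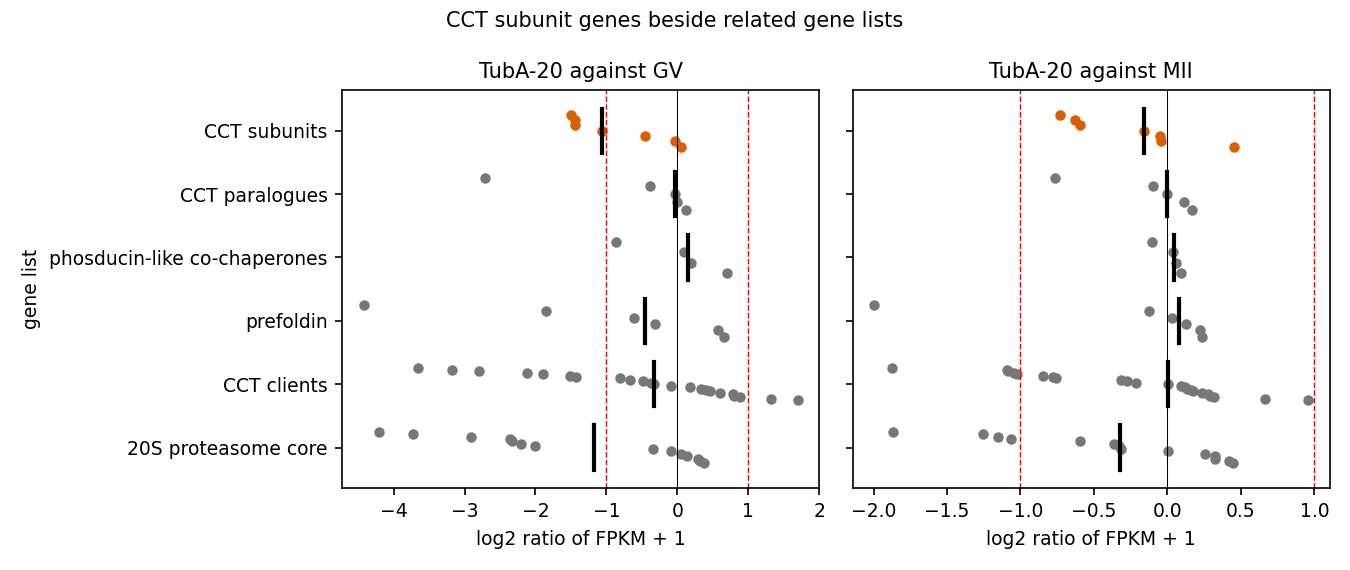
Log2 ratio of FPKM + 1 in TubA-20 against GV (left) and against MII (right), 1 point a gene, for the 7 measured CCT subunit genes and 5 related lists, with black bars for medians and dashed lines for 2-fold. The subunit median is −1.06 on the left and −0.16 on the right.

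The genes with the changes most like those of the subunits were sought among 6361 others that reached 10 FPKM, by the distance of their 3 log2 changes against GV from the medians of the members. The nearest 5 were *Ptpn23* (0.07), *Vps33b* (0.08), *D6Wsu163e* (0.08), *Taf12* (0.09) and *Atmin* (0.10). By the same measure, 220 of these genes were nearer to the medians than *Tcp1*, the nearest member, and 2096 were nearer than *Cct7*, the farthest. The distance rests on 4 libraries and 3 changes that share GV.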

How the data were processed

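Poly(A) RNA of 4 oocyte pools was captured on oligo(dT) and read as paired ends. The authors deposited FPKM values from Cufflinks with a strand-specific library type, and the submitters' processing notes also list STAR 2.5.0, Cuffdiff 2.2.1 and the mm10 build. Labels and methods name different kits for the RNA extraction. Of 21959 entries, 21794 were given a symbol by Ensembl identifier without version, the rest kept their identifier, and entries with a shared symbol were added up. Coordinates are from GENCODE M21 (GRCm38, the assembly of mm10).

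Log2 ratios of FPKM + 1 were computed with no filter and no further scaling, and a 2-fold threshold was used because each group has 1 library. Read counts are not used here, so the counting error of the values was not estimated. The members, the related lists, the rule for named genes (all members, at most 4 genes of a list, the 5 genes nearest to the member medians) and the alternatives were chosen with earlier results of these data known. *Tsacc*, *Fam173b*, *Pradc1* and *Mrpl18* were named for their position. Single markers, the tubulins as a group and the cytosolic chaperone genes that passed 2-fold were named after their values were seen. For the tubulins and the cytosolic chaperones, with *Hsf2* named to describe that list, this goes beyond 4 genes. The promoter and 3′ end features were chosen after the values were seen. Python 3.11.15, numpy 2.4.6, pandas 2.3.3 and matplotlib 3.10.9 were used.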

Additional observations from a re-analysis of the deposited data

How the results depend on the processing

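Alternatives were a pseudocount of 0.1 or 0.01, a minimum of 1 or 5 FPKM, 4 scalings of the libraries (median change set to 0, equal FPKM sums, equal upper quartiles, equal *Gapdh*), the highest entry of a symbol and a threshold of 1.5-fold or 3-fold. Of 42 pairs of a member and a comparison, 32 kept their direction and their side of 2-fold under all 9 alternatives that give a log2 value, and 6 changed sign. The sign changes were those of *Cct2* between TubA-20 and TubA-10 (−0.065 with equal FPKM sums, −0.17 with equal *Gapdh*, −0.044 with the median change set to 0), *Cct4* between TubA-10 and MII (0.028 with equal *Gapdh*), *Cct7* between MII and GV (−0.0090 with the median change set to 0) and between TubA-20 and GV (0.040 with equal *Gapdh*, 0.028 with equal upper quartiles), and *Cct8* between TubA-10 and GV (0.069 with equal *Gapdh*) and between TubA-20 and GV (−0.17 with the median change set to 0). The median of the members in TubA-20 against GV fell inside 2-fold with equal *Gapdh* (−0.98) and equal upper quartiles (−0.997), and ranged down to −1.28. The 6 medians kept their sign under these alternatives. Calls of single genes in the related lists and markers were not put through them. Some of those genes lay close to 2-fold in TubA-20 against GV, such as *Hspa4* (−1.05), *Zp1* (−1.08) and *Gdf9* (1.11).

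The number of members lower by more than 2-fold in MII than in GV was 0 with equal FPKM sums (1618 of all 21957 genes) or equal upper quartiles (1790). It was also 0 with equal *Gapdh* (1466) or a 3-fold threshold (774), and 4 with 1.5-fold (3099). In TubA-10 against GV it was 2 with 1.5-fold (2370 of all genes) and 1 when the median change was set to 0 (1473). In TubA-20 against GV it was 0 with 3-fold (1502 of all genes) and 3 with equal *Gapdh* (2486) or upper quartiles (2494). In TubA-20 against MII it was 3 with 1.5-fold (1606 of all genes). In TubA-20 against TubA-10 it was 1 with equal upper quartiles (1091 of all genes), 0 with 3-fold (340) and 3 with 1.5-fold (2472). These shifts follow from the construction of the scalings and thresholds. No paired analysis was possible because each group has 1 library. With 1 library per group, small differences such as those of *Cct2* and *Cct7* cannot be told from noise. Fragment counts per gene were not used here.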

Other observations

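The chaperonin of the mitochondrion is the counterpart of CCT in that organelle and works with a separate lid. *Hspd1*, which encodes its barrel, had 37.3 FPKM (GV), 54.4 (MII), 56.3 (TubA-10) and 56.2 (TubA-20). *Hspe1*, the lid, was at 339, 306, 322 and 347 FPKM. Neither gene passed 2-fold in any comparison, and *Hspd1* was lowest in GV.

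A list of 8 genes held other chaperones of the cytosol and the heat shock factors *Hsf1* and *Hsf2*. In TubA-20 against GV, 3 of the 8 were lower (*Hspa8*, *Hspa4* and *Dnajb1*) and 2 higher (*Hsp90aa1* and *Hsf1*) by more than 2-fold, beside 27.7% and 22.7% of genes at 10 FPKM. *Hspa8*, the main cytosolic Hsp70, went from 547 FPKM in GV to 230, 260 and 168 in MII, TubA-10 and TubA-20, and its partner *Dnajb1* from 74.7 to 27.5, 43.6 and 16.2. *Hsp90aa1* went from 1069 to 1643, 1504 and 3046 FPKM in the same order. *Hsf1*, the factor that switches on heat shock genes, measured 29.0 (GV), 47.0 (MII), 44.6 (TubA-10) and 71.6 FPKM (TubA-20).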
